A study of Felis catus with 23 samples.

Results

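hsa-miR-1246, hsa-miR-1290 and hsa-miR-4454 are 3 names on a human microRNA (miRNA) array whose human entries match pieces of other small RNAs. The names were chosen with earlier results of these data known. Their probes were taken by name, as every miRNA probe of the scanner files that carries one of these names. The rule found 6 probes, 2 per name, of 4944 miRNA probes with 2026 names. All 6 probes were also present in the deposited series table and all 6 passed the detection filter used for testing, so no member was left out.

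A miRNA is a short RNA that is loaded into an Argonaute protein and guides it to messenger RNAs. In human, the entry for miR-1246 matches a stretch of U2 small nuclear RNA (snRNA), the RNA of the spliceosome that pairs with the branch point of an intron, and the entry for miR-1290 nearly matches the same stretch. The probes of these names may therefore share target sequence, and their values are not independent of each other. The human entry for miR-4454 nearly matches the 3′ end of histidine transfer RNA (tRNA), the adaptor that brings histidine to the ribosome. Cut pieces of snRNA and tRNA circulate in serum beside miRNAs. All of this is known from human, and no match to the cat was made here: no probe or miRNA sequence was in the sources used here, so none is printed, and none of the 3 names matched a gene symbol of the cat annotation.

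The study compared serum of 11 cats with hypertrophic cardiomyopathy (HCM), a disease in which the wall of the heart thickens, with serum of 12 healthy cats, with 1 array per cat. Blood of both groups was left to clot and spun, and RNA of the serum was hybridised in 1 colour to the human array. No age, breed, sex or treatment of a cat was used here. What the human probes bind in cat RNA was not measured, so each result below is one of a probe.

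Each of the 6 probes had 15 spots per array, and the brightness of the spots was averaged and scaled to the array's 75th percentile of miRNA signals. Values are log2 scaled intensities unless stated otherwise, and differences are HCM minus healthy on that scale. The floor given to dim values was 2.45. Detection means that the scanner software called 50% or more of a probe's spots on an array well above background. No spot of the 6 probes was saturated. Precision is limited by how many arrays there were. Before scaling, the log2 75th percentile that was used as the brightness of an array was 8.22 ± 0.49 (SD, n = 11) in HCM and 7.80 ± 0.91 (SD, n = 12) in healthy cats. The means differed by 0.42 (2-sided permutation p = 0.186), which does not show that the groups were equally bright. The arrays lay on 3 slides that each held both groups, with 3 HCM and 4 healthy arrays on slide 1 and 4 of each on slides 2 and 3. HCM arrays always took row 1 of a slide and healthy arrays row 2, so row and group cannot be told apart. Within a name, the probe with the higher mean is called the brighter probe and the other the dimmer probe. Brightness depends on the probe as well as on the RNA, so no level is read from one probe against another.

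The first comparison asked whether serum signals differed between cats with HCM and healthy cats. None of the 6 probes passed the test. The brighter miR-1246 probe had the largest difference of all 1075 tested miRNA probes, while the other 5 differed by between -0.31 and -0.03. With limma across all 1075 tested probes, 0 (0%) had an adjusted p under 0.05, where the smallest was 0.197. Before adjustment, 59 probes (5.49%) had p under 0.05, 31 higher and 28 lower in HCM, against which the 1 of 6 member probes below must be read. The median difference of all tested probes was -0.11, and 32% of them were above 0. That share was 43.5% after quantile normalization, 43.6% with normexp background correction, 52.3% in the deposited values and 82.3% without scaling between arrays. A serum signal holds no cell counts, so more cells that release an RNA and more RNA released per cell cannot be told apart.

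The brighter miR-1246 probe, A_25_P00015143, was detected on all 23 arrays. In HCM its lowest, median and highest values were 5.11, 6.23 and 8.28. In healthy cats they were 4.94, 5.57 and 7.14. The HCM arrays fell into 2 ranges that were far apart in intensity: replicates 1, 5, 6, 10 and 12 lay above every healthy array, and the other 6 lay within the healthy range. Before scaling, those 5 arrays had intensities between 269 and 456, while the highest healthy array had 84.3 and the other 6 HCM arrays had between 38.1 and 77.6. Of the HCM arrays, 10 of 11 were above the healthy median. The spread of spots within an array was small beside this: the median coefficient of variation over spots was 6.89%.

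The group means of this probe were 6.77 ± 1.07 (SD, n = 11) in HCM and 5.72 ± 0.68 (SD, n = 12) in healthy cats. The difference was 1.05 (SE 0.35, 95% interval 0.33 to 1.77), with limma p = 0.00585 and adjusted p = 0.483. A 2-sided permutation test of this probe alone gave p = 0.0113, before any adjustment. It was the 13th probe by limma p. Only 3 of 1075 probes (0.279%) had a difference of at least 1, all higher in HCM. Within slides 1, 2 and 3 the difference was 0.35, 1.2 and 1.53. It was 1.47 without scaling between arrays, 1.18 in the deposited values (limma adjusted p = 0.127, where 1.12% of all tested probes and none of the 6 were called), and 0.67 with normexp, which pulls dim values together. Leaving out each array in turn gave differences between 0.90 and 1.22, none of which passed the test.

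The dimmer miR-1246 probe, A_25_P00015142, was detected on 8 HCM arrays and 7 healthy arrays, and 2 healthy arrays were at the floor. Its lowest, median and highest values were 2.48, 3.0 and 4.07 in HCM and 2.45, 3.0 and 4.76 in healthy cats. The groups covered nearly the same range, with 5 of 11 HCM arrays above the healthy median. The means were 3.22 ± 0.60 (SD, n = 11) and 3.25 ± 0.79 (SD, n = 12), and the difference was -0.03 (SE 0.28, 95% interval -0.61 to 0.55, limma adjusted p = 0.987). The sign of so small a difference was not stable: it was 0.28 without scaling, 0.08 in the deposited values, and -0.53, 0.16 and 0.22 within slides 1, 2 and 3.

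**Figure D1:**
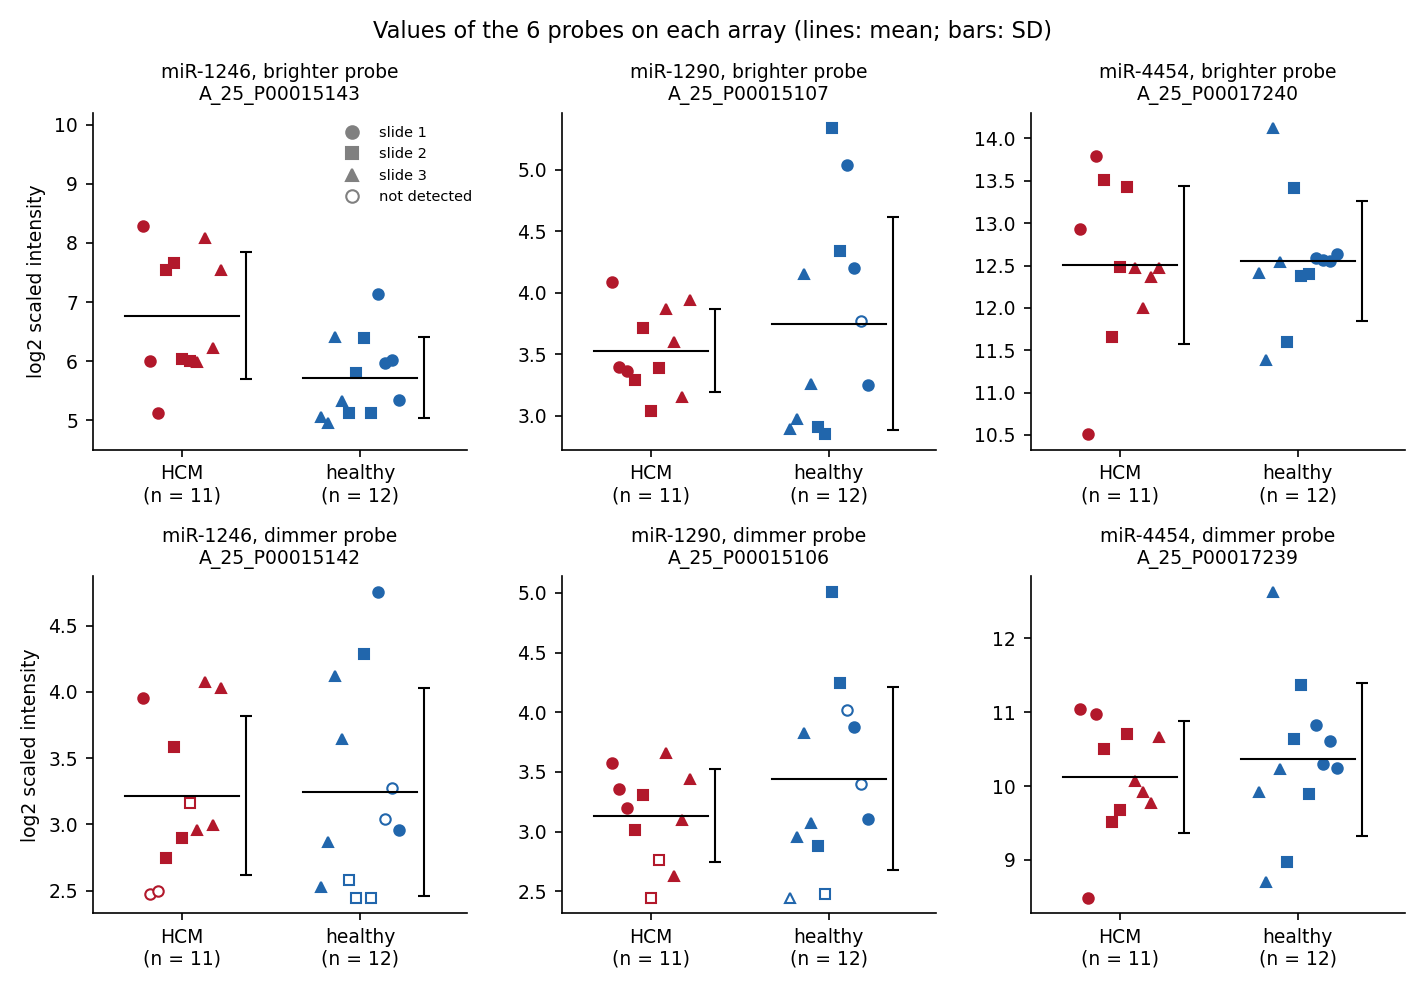
Log2 scaled intensity of each of the 6 probes (vertical axes, each with its own range) on the 11 HCM and 12 healthy arrays, with 1 point per array, lines at the group means, bars of 1 SD and open points where the probe was not detected. On the brighter miR-1246 probe 5 HCM arrays lie above the highest healthy value of 7.14, while on the other 5 probes the group means differ by between -0.31 and -0.03 and the ranges overlap.

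The second comparison asked how well the probes of one name agreed. Over the 23 arrays the 2 probes of miR-1246 correlated with Pearson r = 0.646 (2-sided permutation p = 0.0009) and Spearman rho = 0.658 (p = 0.00069), with adjusted p = 0.00337 and 0.00345 over the 15 pairs that the 6 probes form. Without the 2 arrays farthest from the median of the brighter probe, r was 0.579. Within slides 1, 2 and 3 it was 0.765, 0.465 and 0.748. Within HCM it was 0.813 and within healthy cats 0.836, both above the pooled value. The same arrays were thus high on both probes inside each group, but the probes were offset between the groups.

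That offset was measured as the gap, the brighter probe's log2 value minus the dimmer one's on the same array, from which the scaling of the array cancels wherever neither value is at the floor. In HCM the lowest, median and highest gaps of miR-1246 were 2.62, 3.52 and 4.80. In healthy cats they were 1.68, 2.46 and 3.34. The ranges overlapped, but all 11 HCM arrays were above the healthy median. The mean gap was 3.55 ± 0.68 (SD, n = 11) in HCM and 2.47 ± 0.43 (SD, n = 12) in healthy cats. The difference of 1.08 had a 2-sided permutation p of 0.00013, and permuting groups within slides gave p = 0.00027. It was 0.88, 1.04 and 1.30 within slides 1, 2 and 3. The dimmer probe was not well above background on 3 HCM and 5 healthy arrays, so their gaps are uncertain, and the healthy arrays at the floor can only have had larger gaps than those given. Over the 8 HCM and 7 healthy arrays on which both probes were detected, a restriction chosen after seeing the data, the mean gap was 3.77 ± 0.64 (SD, n = 8) in HCM and 2.21 ± 0.28 (SD, n = 7) in healthy cats. That difference of 1.56 had a 2-sided exact permutation p of 0.000311, the smallest these group sizes allow. These gaps did not overlap, with the lowest HCM gap at 3.02 and the highest healthy gap at 2.53. However, the restriction selects on the dimmer probe, which is itself part of the gap. The lowest HCM gap of 2.62 and the highest healthy gap of 3.34 over all arrays came from arrays that it left out. The lack of overlap and this p are therefore no separate support.

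Of the 2026 names, 445 gave a pair of tested probes, the 2 brightest where a name had more. The gaps of all 445 pairs were tested together with limma. The miR-1246 gap differed by 1.08 (SE 0.23, 95% interval 0.61 to 1.55, p = 9.01e-05, adjusted p = 0.0201). It was 1 of 2 names called (0.449%), the other being miR-145-5p with a gap difference of 0.32 (adjusted p = 0.0182). In absolute size it was the largest of the 445, where the median was 0.04. The next were miR-516a-5p with 0.73 and miR-29b-3p with -0.67, neither of which was called. With slide as a block the adjusted p was 0.0234, and on the deposited values the difference was 1.10 (adjusted p = 0.0248). The call was lost with array brightness as a covariate (1.06, adjusted p = 0.0548), with quantile normalization (1.02, adjusted p = 0.0628) and with normexp (0.66, adjusted p = 0.225). It was also lost without HCM replicate 6 (1.03, adjusted p = 0.0513) and without HCM replicate 10 (1.03, adjusted p = 0.0507), and it held without each of the other 21 arrays. A higher value of only the brighter miR-1246 probe was already known from earlier results of these data, so the gap is no independent support for it.

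**Figure D2:**
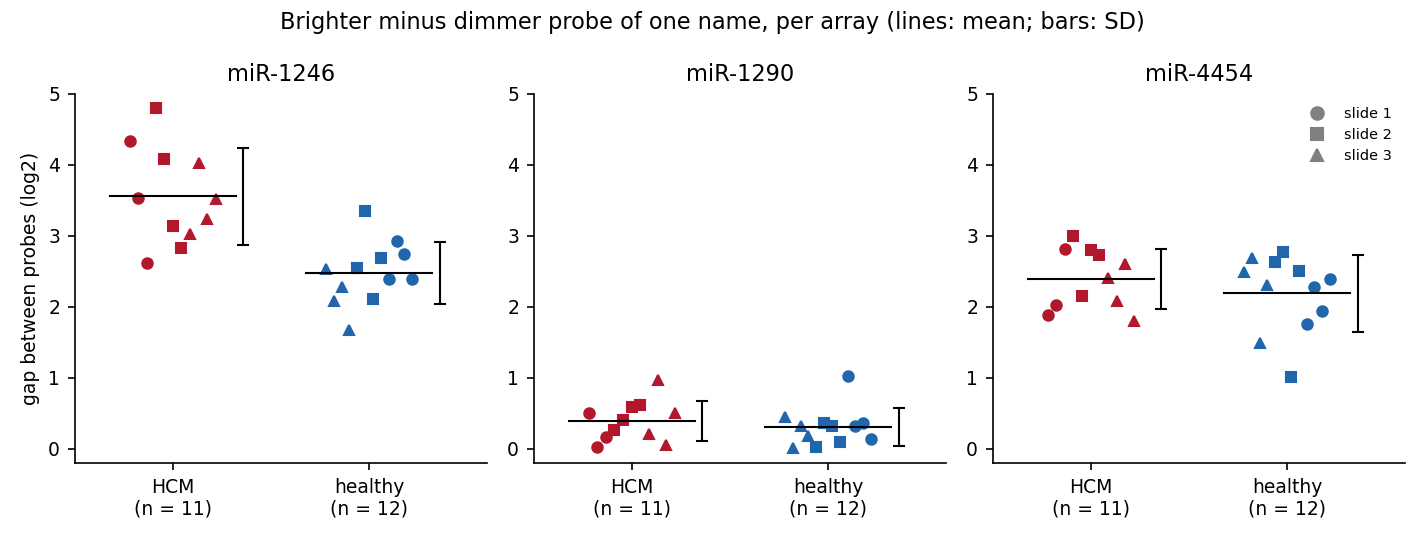
Gap between the 2 probes of each name (vertical axis, log2 units, brighter minus dimmer) on the 11 HCM and 12 healthy arrays, with 1 point per array, lines at the group means and bars of 1 SD. The miR-1246 gap averages 3.55 in HCM and 2.47 in healthy cats, while the gaps of miR-1290 and miR-4454 overlap between the groups.

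The relation of the brighter miR-1246 probe to the brightness of the array had opposite signs in the groups, as did that of other member probes. A scaled value is the unscaled log2 value minus that brightness, so a probe that follows the brightness weakly has a negative r by construction, and the r values of scaled probes with brightness are given without p. Pooled over the 23 arrays, the brighter miR-1246 probe had r = -0.01 and rho = -0.16 after scaling. Without the 2 farthest arrays r was -0.01, and within slides 1, 2 and 3 it was -0.24, 0.313 and -0.03. Within HCM that r was 0.543 and within healthy cats -0.813, a difference that was not tested. The opposite signs were not particular to this probe. In HCM and healthy cats r was 0.537 and -0.616 for the dimmer miR-1246 probe. For the miR-4454 probes it was 0.333 and -0.354 (brighter) and 0.450 and -0.649 (dimmer), and the miR-1290 probes are given below. Before scaling, the r of the brighter miR-1246 probe was 0.766 in HCM and 0.661 in healthy cats. The difference of the brighter miR-1246 probe was 1.15 (limma adjusted p = 0.269) with array brightness as a covariate, beside 1.05 without. That fit has 1 slope for both groups, while r had opposite signs in them. It therefore cannot decide what brightness adds to the difference. The summed red cell miRNAs had r = 0.240 with the brighter probe (p = 0.271, adjusted p = 0.488 over 36 relations of the 6 probes to array measures) and rho = 0.184 (p = 0.401), and r was 0.158 without the 2 farthest arrays.

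The brighter miR-1290 probe, A_25_P00015107, was detected on every HCM array and on all but 1 healthy array. Its lowest, median and highest values were 3.04, 3.39 and 4.09 in HCM and 2.85, 3.51 and 5.34 in healthy cats. The healthy arrays enclosed the HCM arrays, with 5 of them above and 4 below every HCM array. The means were 3.53 ± 0.34 (SD, n = 11) and 3.75 ± 0.87 (SD, n = 12), and the difference was -0.22 (SE 0.27, 95% interval -0.77 to 0.33, limma adjusted p = 0.836). Within slides 1, 2 and 3 it was -0.45, -0.50 and 0.32.

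The dimmer miR-1290 probe, A_25_P00015106, was detected on 9 HCM arrays and 8 healthy arrays, with 1 array of each group at the floor. Its lowest, median and highest values were 2.45, 3.20 and 3.66 in HCM and 2.45, 3.25 and 5.01 in healthy cats. Here too 5 healthy arrays were above every HCM array. The means were 3.14 ± 0.39 (SD, n = 11) and 3.44 ± 0.77 (SD, n = 12), and the difference was -0.31 (SE 0.25, 95% interval -0.82 to 0.21, limma adjusted p = 0.816). The highest value of both miR-1290 probes came from healthy replicate 20, which was also the dimmest of the 23 arrays, with a log2 brightness of 6.5.

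The 2 miR-1290 probes correlated with r = 0.912 and rho = 0.900, each with a 2-sided permutation p of 1e-05, the smallest that the resamples can give, and adjusted p = 7.5e-05 and 0.00015. Without the 2 farthest arrays r was 0.875, and within slides 1, 2 and 3 it was 0.946, 0.974 and 0.791. The mean gap was 0.39 ± 0.28 (SD, n = 11) in HCM and 0.30 ± 0.27 (SD, n = 12) in healthy cats. It differed by 0.09 (2-sided permutation p = 0.445; limma adjusted p = 0.947), a size that 22.7% of the 445 names reached.

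After scaling, both miR-1290 probes had a negative r with the brightness of the array, which is in part built in by the scaling. For the brighter probe r was -0.657 and rho -0.551. Without the 2 farthest arrays r was -0.583, and within slides 1, 2 and 3 it was -0.589, -0.822 and -0.443. The dimmer probe had r = -0.623 and rho = -0.567, with r = -0.527 without the 2 farthest arrays and r = -0.610, -0.764 and -0.496 within the slides. Within HCM r was 0.295 and -0.04, and it was -0.830 and -0.734 within healthy cats, whose arrays spread more widely in brightness. On the deposited values r was -0.537 and -0.498. Before scaling the sign was the opposite, with r = 0.498 (2-sided permutation p = 0.0164, adjusted p = 0.0529) and 0.567 (p = 0.0047, adjusted p = 0.0282). For comparison, over all 1075 tested probes the median r with brightness was -0.05 (quartiles -0.36 and 0.19), and 15% and 16.2% of them had a lower r than the brighter and the dimmer miR-1290 probe. With brightness as a covariate the group differences of the 2 probes were 0.03 and -0.10 in place of -0.22 and -0.31.

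**Figure D3:**
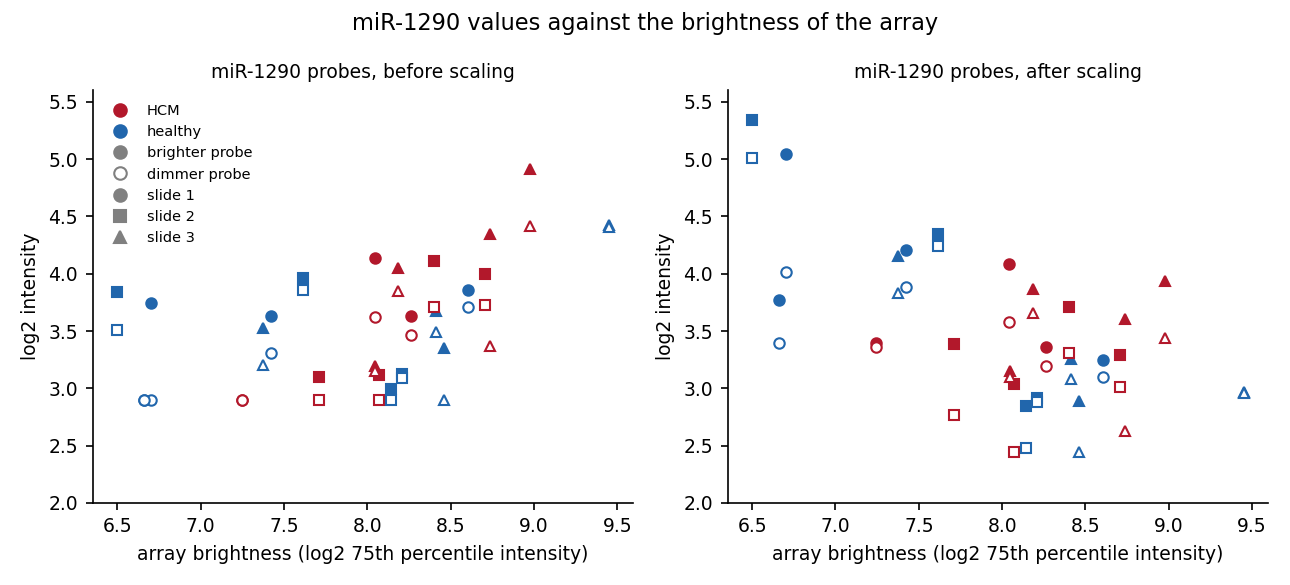
Log2 intensity of the 2 miR-1290 probes (vertical axes) against the log2 75th percentile intensity of each array (horizontal axes), before scaling on the left and after scaling on the right, with filled points for the brighter and open points for the dimmer probe. After scaling the highest values, up to 5.34, sit on the dimmest healthy arrays, and before scaling several dim values sit on 1 level because of the floor.

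Both miR-4454 probes were detected on all 23 arrays and lay far above the floor. The brighter one, A_25_P00017240, had lowest, median and highest values of 10.51, 12.47 and 13.79 in HCM and 11.39, 12.55 and 14.12 in healthy cats. Before scaling its intensities ran from 864 to 19011 in HCM and from 1881 to 12062 in healthy cats. On the scaled values only the lowest HCM array (replicate 2) and the highest healthy array (replicate 16) lay outside the range of the other group. The means were 12.51 ± 0.93 (SD, n = 11) and 12.55 ± 0.71 (SD, n = 12), and the difference was -0.04 (SE 0.32, 95% interval -0.71 to 0.63, limma adjusted p = 0.984). Within slides 1, 2 and 3 it was -0.18, 0.32 and -0.29.

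The dimmer miR-4454 probe, A_25_P00017239, had lowest, median and highest values of 8.49, 10.06 and 11.04 in HCM and 8.70, 10.27 and 12.63 in healthy cats. The extremes fell on the same cats as for the brighter probe at the low end of HCM (replicate 2), the low end of healthy (replicate 15) and the high end of healthy (replicate 16). The means were 10.12 ± 0.76 (SD, n = 11) and 10.36 ± 1.03 (SD, n = 12), and the difference was -0.24 (SE 0.36, 95% interval -0.98 to 0.50, limma adjusted p = 0.849). It was -0.33, -0.12 and -0.27 within slides 1, 2 and 3. The spots of these probes were the most even of the 6, with a median coefficient of variation of 1.80% for the brighter and 2.65% for the dimmer probe. The SE of a log2 value that the spots give had a median of 0.00675 and 0.00987, beside an SD of 0.80 and 0.90 over the 23 arrays.

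The miR-4454 probes correlated with r = 0.843 (2-sided permutation p = 1e-05, the smallest that the resamples can give) and rho = 0.777 (p = 5e-05), with adjusted p = 7.5e-05 and 0.000375. Without the 2 farthest arrays r was 0.735, and within slides 1, 2 and 3 it was 0.929, 0.665 and 0.970. The mean gap was 2.39 ± 0.42 (SD, n = 11) in HCM and 2.19 ± 0.54 (SD, n = 12) in healthy cats, a difference of 0.20 (2-sided permutation p = 0.337; limma adjusted p = 0.911). A gap difference of that size was reached by 8.09% of the 445 names.

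**Figure D4:**
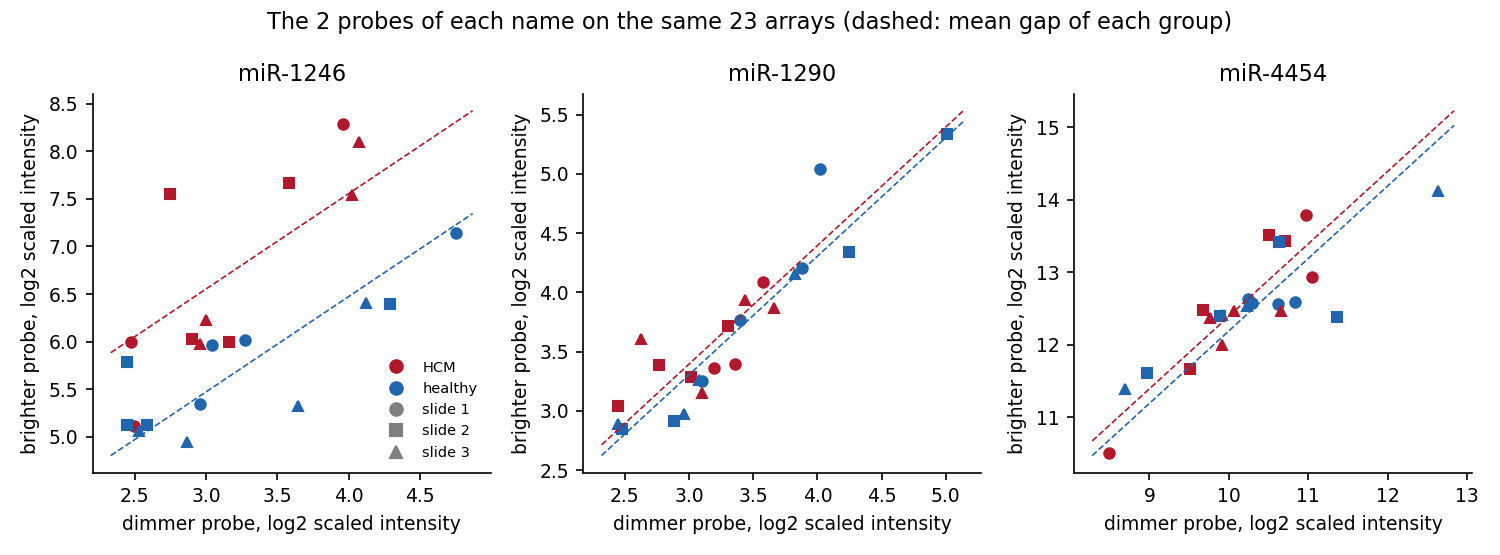
Brighter probe against dimmer probe of each name on the 23 arrays, both as log2 scaled intensity, with 1 point per array and dashed lines at the mean gap of each group. The dashed lines of miR-1246 are 1.08 apart, with HCM above, while those of miR-1290 and miR-4454 are 0.09 and 0.20 apart.

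Set beside the whole array, the r of each of the 3 names lay below the median of all names. Over the 445 names with 2 or more tested probes, of which the 2 brightest were used, the median r was 0.970 (quartiles 0.896 and 0.992). It is given as a description over 23 arrays. A lower r than that of miR-1246 was found for 30 names (6.74%), than that of miR-4454 for 81 (18.2%) and than that of miR-1290 for 126 (28.3%). For the 214 names whose probes were both detected on every array, as were those of miR-4454, the median r was 0.988.

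**Figure D5:**
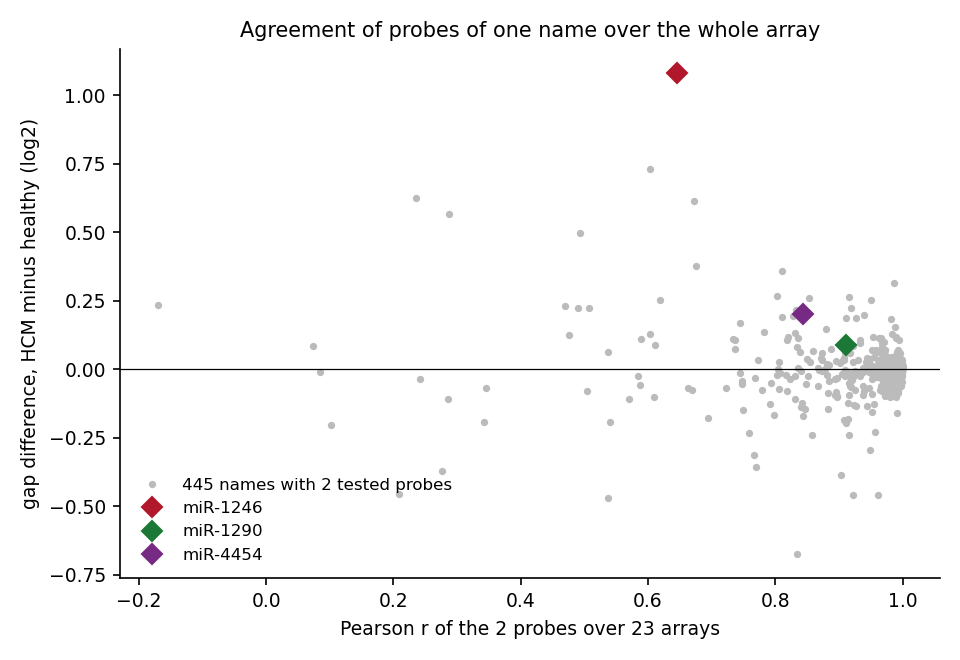
Pearson r between the 2 brightest tested probes of a name over 23 arrays (horizontal axis) and difference of their gap between HCM and healthy cats (vertical axis, log2 units), with 1 grey point for each of the 445 names with 2 or more tested probes. miR-1246 lies alone at the top, at r = 0.646 and a gap difference of 1.08, while miR-1290 and miR-4454 lie at gap differences of 0.09 and 0.20.

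Across names, the pooled r of the dimmer miR-1246 probe was about as high with the brighter miR-1290 probe as with the other miR-1246 probe. Within HCM and within healthy cats it was lower with the miR-1290 probe, at 0.676 and 0.738 beside 0.813 and 0.836. The pooled r with the miR-1290 probe was 0.692 (2-sided permutation p = 0.00027, adjusted p = 0.00135) with rho = 0.593 (p = 0.00369, adjusted p = 0.0138). It was 0.488 without the 2 farthest arrays and 0.888, 0.704 and 0.728 within slides 1, 2 and 3. The brighter miR-1246 probe and the brighter miR-1290 probe gave r = 0.379 (p = 0.0735, adjusted p = 0.122) and rho = 0.486 (p = 0.0192, adjusted p = 0.0452), with r = 0.405 without the 2 farthest arrays and r = 0.640, 0.0822 and 0.628 within the slides. Whether these values differ from each other was not tested. The rho of the second pair lost its adjusted call under the other scalings that were run except the one without scaling, with an adjusted p between 0.0801 and 0.181, and with outlier spots kept (0.0643). The r of the first pair passed under every setting, but its rho did not with the percentile over all probes, quantile normalization, normexp or the deposited values (adjusted p between 0.0777 and 0.123). Of the pairs that join miR-4454 with another name, the dimmer miR-4454 probe with the dimmer miR-1246 probe gave r = 0.526 (p = 0.00936, adjusted p = 0.0281) and rho = 0.486 (p = 0.0197), with r at 0.471 without the 2 farthest arrays and 0.514, 0.459 and 0.632 within the slides. With the brighter miR-1290 probe it gave r = 0.510 (p = 0.0141, adjusted p = 0.0351) and rho = 0.482 (p = 0.0211), with r at 0.442 without the 2 farthest arrays and 0.391, 0.503 and 0.757 within the slides. Neither of these pairs passed with the percentile over all probes, quantile normalization, normexp or the deposited values. Their r there lay between 0.297 and 0.380 for the first pair (adjusted p between 0.216 and 0.365) and between 0.297 and 0.413 for the second (adjusted p between 0.150 and 0.317). The brighter miR-4454 probe had r between 0.01 and 0.118 with the 4 probes of the other names, none of which passed the adjustment. Without scaling these r lay between 0.302 and 0.424. There the pair with the brighter miR-1246 probe passed by rho (0.471, permutation adjusted p = 0.0400) but not by r (adjusted p = 0.0590).

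The probes most like each member were sought among the 739 probes of other names that were detected on at least 18 of 23 arrays, as a description over arrays that share their scaling. For the brighter miR-1246 probe the highest r was only 0.552, with a probe of miR-24-3p, followed by the other miR-24-3p probe, miR-500a-3p, miR-142-5p and miR-1307-5p at 0.545, 0.534, 0.529 and 0.496. For the dimmer one it was higher, at 0.746 with miR-342-3p, 0.724 with miR-142-5p, 0.718 and 0.703 with the 2 probes of miR-29a-3p and 0.703 with miR-24-3p. Both miR-1246 probes thus shared miR-24-3p and miR-142-5p among their 5 most like names.

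The miR-1290 probes had the closest matches of the 6. The brighter one followed miR-3124-5p (r = 0.880), miR-3074-5p (0.860), the viral name hsv1-miR-H8-5p (0.860), miR-124-3p (0.856) and miR-1287 (0.835). The dimmer one had r between 0.829 and 0.856 with 5 probes that all carry names of herpesvirus miRNAs, 2 of hsv1-miR-H3-5p, 2 of hcmv-miR-US33-5p and 1 of hsv1-miR-H8-5p. Whether these cats carried any virus was not measured, and these are names of the human array only.

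The brighter miR-4454 probe was most like miR-3907 (r = 0.700), miR-1260b (0.695), the 2 probes of miR-425-5p (both 0.640) and miR-4633-5p (0.634). The dimmer one was most like miR-1260a (0.832), miR-3154 (0.717), the 2 probes of miR-140-3p (0.707 and 0.699) and miR-223-3p (0.681). The names miR-1260a and miR-1260b also stand in the list of names whose human entries overlap other small RNAs. Over all 739 candidates the median r with a member probe lay between -0.05 and 0.139.

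That list holds 25 names beside the 3 described here, each represented by its brightest probe. Of these, 16 were on the array, 9 were tested and 6 were detected on no array. None of the 9 passed limma's adjusted p (0 of 9, against 0% of all tested probes), and none had an unadjusted p under 0.05. In direction 2 were above and 7 below 0, with a median of -0.19 beside -0.11 for all tested probes. The 4 with the lowest p were miR-4286 with -0.82 (SE 0.41, limma p = 0.0587, adjusted p = 0.816), miR-3676-5p with -0.29, miR-3676-3p with -0.25 and miR-1260a with -0.31.

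Serum can also hold RNA of blood cells, and 3 lists of blood cell miRNAs were measured on the same arrays. The log2 summed level of 5 red cell miRNAs ran from 10.91 to 13.58 in HCM and from 10.68 to 14.02 in healthy cats, a mean difference of 0.02 (2-sided permutation p = 0.969). That of 5 platelet miRNAs ran from 5.90 to 8.73 and from 6.06 to 8.87 (difference -0.05, p = 0.893). That of 5 leukocyte miRNAs ran from 6.09 to 8.11 and from 6.42 to 8.52 (difference -0.33, p = 0.242). Each marker was detected on at least 1 array, but some seldom were. miR-150-5p and miR-126-3p were detected on 1 array each, miR-142-3p on 2, and miR-146a-5p and miR-16-5p on 3 each. Each sum mainly follows its brightest members, in the red cell list miR-486-5p and miR-92a-3p. In that list miR-451a differed by -0.90 and miR-144-3p by 0.41, and 3 tested members were above and 1 below 0. With limma 0 of the 10 tested members of the 3 lists were called, and none had an unadjusted p under 0.05. Against 0% and 5.49% of all tested probes, these counts say nothing particular of the lists.

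The brighter miR-4454 probe had a relation to the red cell sum that passed the test on the scaled values and did not with the probe left unscaled. The sum was on the scaled values throughout, so a scaled probe and the sum share the scaling of the array. Its scaled r was 0.545 (2-sided permutation p = 0.00675, adjusted p = 0.0304), its rho 0.517 (p = 0.0127, adjusted p = 0.0651), and r was 0.373 without the 2 farthest arrays, so the relation rested in part on those. Within slides 1, 2 and 3 r was 0.494, 0.441 and 0.740, and within HCM and healthy cats it was 0.352 and 0.777. With the probe unscaled against the same scaled sum r was 0.366 (p = 0.0841, adjusted p = 0.178). With the deposited values of the probe against that sum it was 0.547 (p = 0.00622, adjusted p = 0.0304). The relation with both probe and sum unscaled was not tested. For the dimmer miR-4454 probe the scaled r was 0.449 (p = 0.0305, adjusted p = 0.0843) and rho was 0.343 (p = 0.109). The part of red cell RNA in the miR-4454 signal was not tested.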

How the data were processed

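Serum RNA of 23 cats was measured on 1-colour Agilent arrays, 1 array per cat, and the groups were taken from the labels. Per the file headers, the deposited scanner files hold spot intensity on a linear scale with background subtracted, and flags of other kinds for each spot. The software was Agilent Feature Extraction 10.7.3.1, per the submitters' processing notes. The authors also deposited a series table of log2 values, for which scale and direction were settled against the intensities (r between 0.987 and 0.9998, slope between 0.950 and 0.980 per array). The column medians of that table ran from 3.12 to 3.30 in HCM and from 2.98 to 3.31 in healthy cats, and its centring and normalization are not given in the sources used here.

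Control spots and outlier spots (1.81% to 3.95% of miRNA spots) were left out and the spots of a probe averaged. Since only 18.6% of probe values were detected, the 75th percentile used for scaling was taken over the 508 probes seen on every array. Values were floored at an intensity of 5.45, the 5th percentile of scaled signals well above background. The 1075 probes, of 544 names, detected on at least 6 of 23 arrays were tested, each probe apart, with limma 3.58.1 in R 4.3.3 (lmFit and eBayes, Benjamini-Hochberg, threshold 0.05). Permutation tests with 100000 resamples were run in Python (3.11.15, using scipy 1.17.1, numpy 2.4.6, pandas 2.3.3), and figures were drawn with matplotlib 3.10.9. Both kinds of test were tested on simulated data. For normexp the median spot signal took the place of the mean signal, which the files given here do not carry.

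The names described were all probes of the 3 names, the 5 most like probes of each and at most 4 tested members with the lowest p of the list of fragment names. miR-145-5p, miR-516a-5p, miR-29b-3p and the single blood cell markers were named after their values were seen. The members, lists and tests were chosen with earlier results of these data known. All 3 names were looked up in the RefSeq cat annotation F.catus_Fca126_mat1.0, and 0 matched.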

Additional observations from a re-analysis of the deposited data

How the results depend on the processing

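No member probe passed the adjusted threshold under any limma setting, and the brighter miR-1246 probe was higher in HCM under every setting run, by between 0.35 (slide 1 alone) and 1.53 (slide 3 alone). The count of probes called over all tested probes was 0, but 12 in the deposited values, 8 on slide 2 alone, 1 with the floor at the 1st percentile, 1 of 544 names with the total gene signal, and between 0 and 6 when an array was left out (6 without HCM replicate 11). Differences close to 0 turned their sign. For A_25_P00015142 (miR-1246) they were 0.0235 with the percentile over all probes, 0.0196 with normexp, 0.28 without scaling, 0.0749 with quantile normalization, 0.0756 in the deposited values, 0.0895 with array brightness as a covariate, 0.15 with slide and brightness, 0.16 on slide 2, 0.22 on slide 3 and between -0.12 and 0.11 with an array left out. For A_25_P00015107 (miR-1290) they were 0.19 without scaling, 0.0279 with brightness, 0.0479 with slide and brightness and 0.32 on slide 3, and for A_25_P00015106 (miR-1290) 0.11 without scaling and 0.13 on slide 3. For A_25_P00017240 (miR-4454) they were 0.0368 with the percentile over all probes, 0.38 without scaling, 0.12 in the deposited values, 0.32 on slide 2 and between -0.17 and 0.16 with an array left out, and for A_25_P00017239 (miR-4454) 0.18 without scaling. The median of all tested probes moved from -0.11 to 0.20 without scaling and to 0.01 in the deposited values, so these differences are relative to that shift. The cause of the other sign changes was not tested. The miR-1246 gap kept its sign but not its call with brightness (1.06), quantile normalization (1.02) and normexp (0.66), and lay between 0.96 and 1.17 with an array left out. Correlations between probes of different names changed their calls with the scaling, as given beside those described. Without scaling further pairs passed. Among them, the dimmer miR-1246 probe with the dimmer miR-1290 probe gave r = 0.624 (permutation adjusted p = 0.00397), beside 0.457 (adjusted p = 0.0606) on the scaled values. The correlation of the probes of a name lay between 0.616 and 0.786 for miR-1246, 0.868 and 0.931 for miR-1290 and 0.777 and 0.888 for miR-4454 over the other scalings, floors and spot rules. No paired analysis was possible because no replicate number occurs in both groups. Signal over background limits the dimmer miR-1246 and both miR-1290 probes, which lay near the floor.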

Other observations

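The deposited log2 values followed the scaled ones closely for each of the 6 probes over the 23 arrays, with r between 0.948 and 0.982. The deposited mean of the brighter miR-1246 probe was 6.87 ± 1.14 (SD, n = 11) in HCM and 5.69 ± 0.51 (SD, n = 12) in healthy cats, so the spread of the healthy arrays was smaller there than on the scaled values (0.68). For the brighter miR-1290 probe the deposited means were 3.76 ± 0.32 (SD, n = 11) and 3.85 ± 0.65 (SD, n = 12), and for the brighter miR-4454 probe 12.59 ± 0.95 (SD, n = 11) and 12.47 ± 0.67 (SD, n = 12).

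Spots of one probe varied most where the signal was dim. The highest coefficient of variation over the spots of an array was 53.6% for the dimmer and 14.8% for the brighter miR-1246 probe, 41.2% for the brighter miR-1290 probe, and 4.35% for the dimmer miR-4454 probe. Outlier marks fell on 3 to 9 of the 345 spots of each member probe over all arrays.

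On the total gene signal that the scanner software gives per name, scaled and floored likewise, miR-1246 differed by 0.92 (SE 0.35, limma adjusted p = 0.529 over 544 names). On the same signal miR-1290 differed by -0.21 and miR-4454 by -0.11. A sum of both signals mainly follows the brighter probe by construction.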
